A study of Mus musculus with 4 samples.

Results

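The circRNAs of Foxp1 in primary mouse articular chondrocytes were described. In a circRNA a downstream splice site is joined back to an upstream one, which closes the RNA into a ring, and reads across this junction were the measurement. Members were the entries of the deposited table whose junction ends both lay inside the RefSeq span of Foxp1, with a tolerance of 1 bp, and 87 of 40909 circRNAs met this rule. The gene was selected on its number of detected circles, and its circles on the place of their junctions, so their number and level are a description. There were 2 libraries of cells given recombinant human IL-1β (10 ng/ml, 24 h), a cytokine that drives cartilage breakdown, and 2 control libraries, from cells whose source label names no cytokine. The control samples carry the same IL-1β treatment text as the treated ones, so they were taken as controls from the source label alone. All cells were early-passage chondrocytes that had been frozen, and the RNA of all 4 libraries was depleted of ribosomal RNA and then treated with RNase R, an exonuclease that removes linear RNA. The labels give neither strain, age nor sex of the mice. They leave unsaid whether replicate libraries had separate cultures or animals behind them, so a p-value here reflects how far these 4 libraries vary, and that variation may be technical.

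Foxp1 encodes a forkhead transcription factor that acts mainly as a repressor. It pairs with itself and with its relatives Foxp2 and Foxp4 through a leucine zipper, and recruits co-repressors such as the NuRD complex and CtBP proteins. In mouse limbs the Foxp factors are known to act in endochondral ossification, the replacement of cartilage by bone, and to bind Runx2, the main regulator of that step. Linear Foxp1 mRNA and protein were not analysed here.

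The libraries held 895774 and 980542 junction reads with IL-1β, against 1198010 and 1203855 in control. Of 12 chondrocyte marker genes, 10 including Acan, Col2a1 and Sox9 had no junction read in any library, and the list summed to 0 reads in each IL-1β library, against 0 and 9 in control. Fibroblast markers had reads for 5 of 7 genes, with 378 and 493 summed reads with IL-1β, against 455 and 673 in control. Thy1 and Dcn were at 0. All 6 macrophage and leukocyte markers were at 0, and endothelial markers had 8 reads in 1 IL-1β library and 0 in the others. Markers read as circles do not measure the mRNA, so the labelled cell type could not be checked this way. In bulk RNA, fewer cells of a type and less RNA per cell cannot be told apart.

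Foxp1 lies on the minus strand of chromosome 6, from 98925342 to 99522746 in GRCm38.p6, the RefSeq assembly that corresponds to mm10, and spans 597 kb. The 3 start sites of its RefSeq promoter windows were used to place the circles: start 1, start 2 at 254 kb downstream of it, and start 3 at 493 kb. The 250 bases before each start are shown because these starts divide the gene into the stretches in which the circles lie. They are RefSeq sequences on the minus strand, at chr6:99520994-99521243, chr6:99266516-99266765 and chr6:99028299-99028548, written 5′ to 3′ with matches to the forkhead core in capitals.
start 1: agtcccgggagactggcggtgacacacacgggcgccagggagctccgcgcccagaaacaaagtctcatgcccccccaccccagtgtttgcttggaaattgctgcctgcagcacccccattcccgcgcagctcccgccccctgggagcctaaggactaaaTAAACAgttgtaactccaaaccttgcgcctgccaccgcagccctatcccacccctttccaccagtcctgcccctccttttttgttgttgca
start 2: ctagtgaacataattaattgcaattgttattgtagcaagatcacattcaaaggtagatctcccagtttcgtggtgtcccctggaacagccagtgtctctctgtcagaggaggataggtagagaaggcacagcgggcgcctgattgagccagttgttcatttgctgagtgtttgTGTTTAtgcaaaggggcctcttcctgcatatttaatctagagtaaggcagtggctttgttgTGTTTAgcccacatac
start 3: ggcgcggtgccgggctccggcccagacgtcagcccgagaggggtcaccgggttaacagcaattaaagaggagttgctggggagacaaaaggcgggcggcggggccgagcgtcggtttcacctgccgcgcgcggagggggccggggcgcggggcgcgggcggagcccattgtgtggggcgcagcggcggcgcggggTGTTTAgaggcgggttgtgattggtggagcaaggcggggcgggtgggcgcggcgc

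The forkhead core was searched as TGTTTA on either strand (TAAACA on the printed one). It occurred once before start 1 (91 bases upstream), at 2 places before start 2 (77 and 16 bases upstream) and once before start 3 (55 bases upstream). Of 32851 promoter windows of 250 bases, 3952 held a match. Among 721 genes with 3 windows, 16 had a match in every window, Foxp1 among them. The AP-1 site TGANTCA, which reads the same on both strands, was in none of the 3 windows and in 6.75% of all windows. The first window was 60.8% G and C, the second 45.2% and the third 74.0%. A match is a string of letters and not a measured binding site.

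Foxp1 was a rich source of circles. By number of circRNAs it ranked 3rd of 6929 host genes, and by junction reads, 12179 in all, it ranked 37th. With IL-1β 43 and 44 of its circRNAs had a read, against 42 and 38 in control. All 87 circles lay on the gene's strand. The numbering of the deposited table skips 3 entries between the first and last Foxp1 circle, and these were not analysed here. No pair of Foxp1 junctions lay within 5 nt of each other at both ends.

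The circles were built from few splice ends. They used 27 upstream ends and 29 downstream ends, and 87 of the 535 ordered pairs of such ends (16.3%) were read as a circle. The ends of a junction lay a median of 91.4 kb apart for Foxp1, against 10.6 kb over all circRNAs, and the distance ran from 686 bp to 443 kb. Circles with many reads were shorter: the 13 with at least 100 reads had a median of 25.2 kb, and the 53 with fewer than 20 reads a median of 127 kb. In 13 cases an upstream and a downstream end lay 74 to 263 bp apart, at 11 distinct places, so that junctions bounded a short interval on both sides. One of these, 129 bp wide at 99435216 to 99435345 on chromosome 6, bounded 13 circles on its upstream side and 5 on its downstream side. No exon annotation was used here, so these intervals are not named as exons. Positions are as the deposited table gives them, and it does not say whether they count from 0 or 1.

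**Figure D1:**
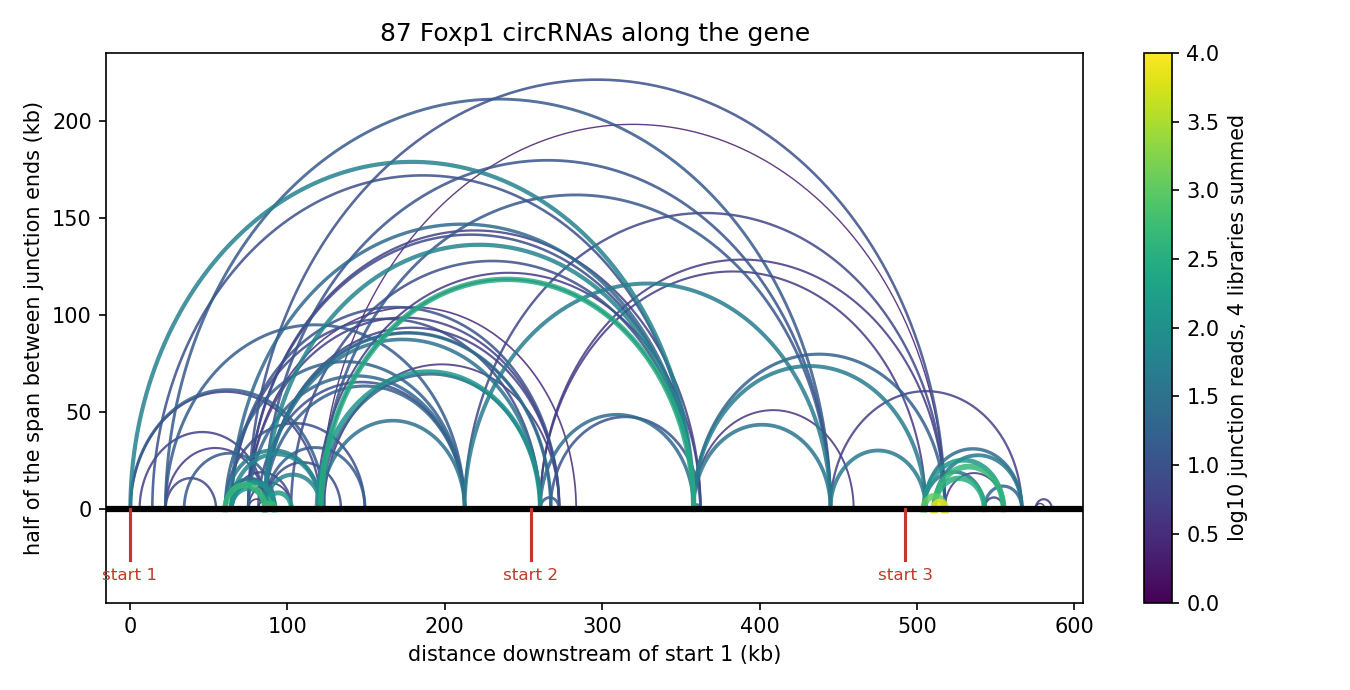
Each arc joins the ends of 1 of the 87 Foxp1 circRNAs. The horizontal axis is the distance downstream of start 1 (kb), the arc's height grows with its span, and colour and width give the reads summed over 4 libraries. The arcs with the most reads lie after start 3, and a further group of short arcs lies between starts 1 and 2.

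The reads were concentrated after start 3, downstream of all 3 starts. There 13 circles held 8946 reads, 73.5% of the total. Between starts 1 and 2, 33 circles held 2190 reads. Circles that spanned start 2 alone numbered 25 and held 791 reads (6.49%), with a median span of 237 kb. The remaining stretches were nearly empty: 7 circles between starts 2 and 3 held 114 reads, 6 across start 3 alone held 120, and 3 across both starts held 18.

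One circle led the gene in every library. It was circRNA.33658 (chromosome 6, 99003200 to 99010057), which joins ends 6.86 kb apart and held 56.4% of all Foxp1 reads. It held 51.4% (exact 95% binomial interval 49.5 to 53.3) and 58.5% (56.8 to 60.2) of Foxp1 reads in the IL-1β libraries, against 60.8% (59.1 to 62.5) and 54.1% (52.3 to 55.8) in the controls. These intervals express counting error alone: PCR copies are not separate molecules. Libraries of the same group differed by more than these intervals, and the groups overlapped. Among the 25 hosts with at least 50 circles the leading circle held a median of 27.3% of reads, and in 3 of them, Foxp1 included, it held as much as in Foxp1 or more.

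**Figure D2:**
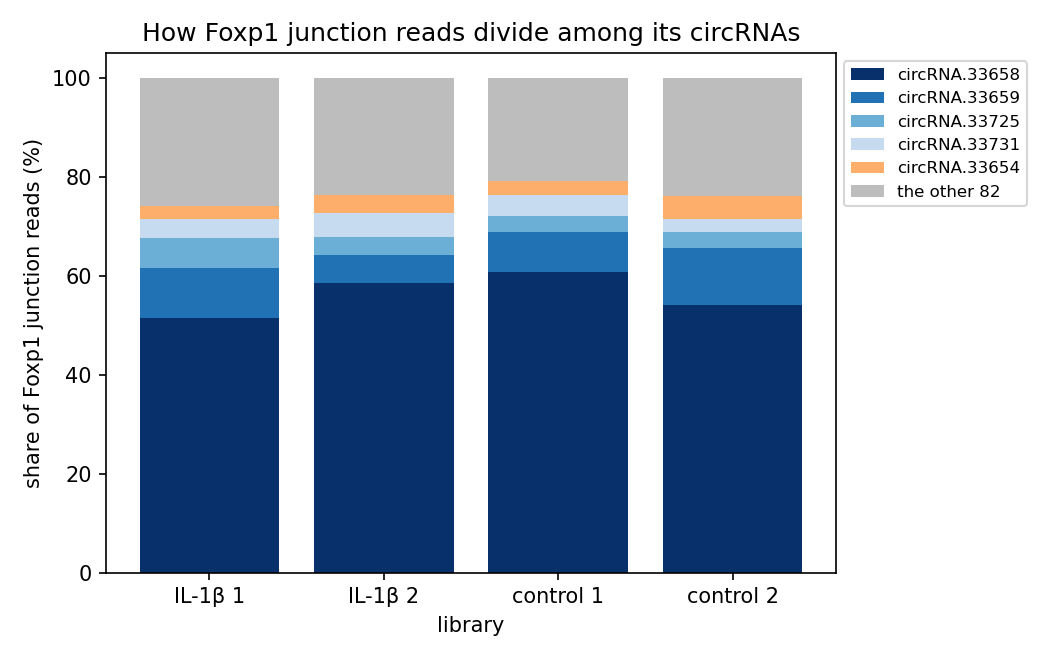
Stacked bars give the share of Foxp1 junction reads (%) held by each of the 5 circRNAs with the most reads and by the other 82, for the 2 IL-1β and the 2 control libraries. The leading circle holds between 51.4% and 60.8% in every library.

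The second circle, circRNA.33659 (99003200 to 99016665), shares the downstream end of the first. That end, 99003200, took part in 7 circles with 65.5% of Foxp1 reads. A total of 4 downstream ends were each joined to both of the 2 busiest upstream ends, 99010057 and 99016665, so that all 8 combinations were read. Summed over the libraries, the nearer upstream end had more reads for each of the 4. The share of the nearer one was 86.6% for the end at 99003200, 90.2% for 98978133, 75.9% for 98966027 and 63.5% for 98954321. For 98954321 the farther end was read in control 1 alone, with 23 reads, and there the nearer share was 45.2%. For the end at 99003200 it was 83.5% and 91.2% with IL-1β and 88.4% and 82.4% in control, so the groups overlapped. They overlapped too for 98966027, at 68.0% and 79.5% with IL-1β, against 91.8% and 69.6% in control. For 98978133 the nearer share was 100% and 97.1% with IL-1β, against 88.4% and 74.0% in control, without overlap. The farther end there had 0 and 4 reads with IL-1β, against 11 and 20 in control, and the difference was not tested.

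A second cluster of joined ends lay 60.5 to 92.2 kb after start 1. The upstream end 99435345 took part in 13 circles, more than any other end, with 1208 reads. The leading circles there were circRNA.33725 (99429210 to 99435345) with 484 reads, circRNA.33731 (99435216 to 99460450) with 477 and circRNA.33721 (99428789 to 99435345) with 338. The circle with the most reads that crosses start 2 was circRNA.33681 (99162839 to 99399717), with 289 reads and ends 237 kb apart.

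Most of the remaining circles were rare. Of the 87, 48 were read in 1 library only (55.2%, against 58.6% of all circRNAs) and 15 in all 4 (17.2% against 16.8%), and those 15 held 90.5% of the reads. Another 13 circles were read in 2 libraries and 11 in 3. There were 53 circles under the minimum of 20 reads used for the tests, and together they held 3.64% of Foxp1 reads. The nearest circles on either side of that minimum had 19 and 20 reads. Of the 34 at or above it, 19 had no read in at least 1 library. Of the 87 circles, 4 were read in each IL-1β library and without a control read, and 0 showed the reverse. Of all 40909 circRNAs the counts were 1004 and 1111. The 4 had few reads: 30 for circRNA.33699, and 16, 15 and 13 for circRNA.33703, circRNA.33713 and circRNA.33690, all 3 under the minimum.

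The main comparison asked which Foxp1 circles differed between IL-1β and control cells. At an adjusted p under 0.05 by edgeR's quasi-likelihood method, 0 of the 34 tested circles passed, where 0.0196% of the 15333 tested circRNAs did. At an unadjusted p under 0.05 there was 1 circle of 34, against 3.44% of all tested. DESeq2 called 0 of the 34 circles, 18 of which had an adjusted p, against 0.691% of all tested, those without an adjusted p included. By DESeq2 4 of 34 had an unadjusted p under 0.05, against 8.99% of all tested. The median log2 change, IL-1β minus control, was 0.23 for the 34 circles, 21 of them positive, against -0.05 for all tested, 48.2% of them positive. With SRPBM depth, the authors' own scaling, the median was 0.07 and 17 of 34 were positive, against -0.28 and 39.2% of all tested. The median was 0.39 without IL-1β 1, where all tested gave -0.13, and 0.08 without IL-1β 2 (16 of 32 positive), where all tested gave -0.21. Without control 1 it was 0.56, against 0.14 for all tested, and without control 2 it was 0.60, against -0.02. These 34 are not all members, since a rare circle could reach 20 reads through 1 group alone.

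Levels are given as CPM, junction reads scaled to a common total of the reads on tested circRNAs, after TMM normalisation. The leading circle circRNA.33658 stood at 1566 and 2114 CPM with IL-1β, against 1687 and 1454 CPM in control, and the groups overlapped. Its log2 change was 0.23 ± 0.23 (SE, n = 2 each; adjusted p = 1.000 in edgeR). With SRPBM depth it was -0.021. The second circle, circRNA.33659, stood at 310 and 204 CPM with IL-1β, against 221 and 310 CPM in control, with a log2 change of -0.05 ± 0.34.

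Among the 10 circles with the most reads, the others at the busy upstream ends 99010057 and 99016665 did not separate either. circRNA.33654 (98966027 to 99010057) stood at 78.7 and 134 CPM with IL-1β, against 80.2 and 122 CPM in control. For circRNA.33656 (98978133 to 99010057) the values were 53.2 and 146 CPM with IL-1β, against 75.7 and 49.1 CPM in control. Its high value came from IL-1β 2 alone, and without that library its log2 change of 0.67 became -0.25. The circle circRNA.33655 (98966027 to 99016665) stood at 37.0 and 34.5 CPM with IL-1β, against 7.21 and 53.5 CPM in control, where the 2 libraries lay on either side of the IL-1β values.

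The 3 leading circles of the upstream cluster stood higher with IL-1β by TMM, none past the test, and with SRPBM depth the groups overlapped for 2 of them. circRNA.33725 stood at 184 and 133 CPM with IL-1β, against 91.0 and 87.1 CPM in control. Both IL-1β values lay above both controls, with a log2 change of 0.83 ± 0.35 (adjusted p = 0.886 in edgeR). With SRPBM depth the log2 change was 0.60, and it was 0.55 without IL-1β 1 and 1.02 without IL-1β 2. In SRPBM the groups came close, at 9.17 in IL-1β 2 and 8.56 in control 1. For circRNA.33731 the values were 119 and 175 CPM with IL-1β, against 117 and 70.7 CPM in control, a log2 change of 0.65 ± 0.42. Here the groups all but touched, at 119 and 117 CPM. With SRPBM depth the log2 change was 0.37, and it was 0.32 without IL-1β 2, 0.33 without control 2 and 1.06 without control 1. circRNA.33721 stood at 96.1 and 112 CPM with IL-1β, against 88.3 and 45.7 CPM in control, a log2 change of 0.64 ± 0.46. With SRPBM depth this was 0.35, and it was 0.24 without control 2 and 1.19 without control 1. The circle circRNA.33718 (99418384 to 99435345), which ends at the same upstream site as circRNA.33725, did not follow, with 33.6 and 39.9 CPM with IL-1β, against 42.4 and 26.7 CPM in control.

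The lowest p among Foxp1 circles belonged to circRNA.33681, the 237 kb circle across start 2. It stood at 109 and 97.1 CPM with IL-1β, against 34.2 and 57.8 CPM in control, a 2.23-fold difference. The log2 change was 1.16 ± 0.47 (unadjusted p = 0.0451, adjusted p = 0.886 in edgeR). With any 1 library left out it stayed between 0.83 and 1.58.

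**Figure D3:**
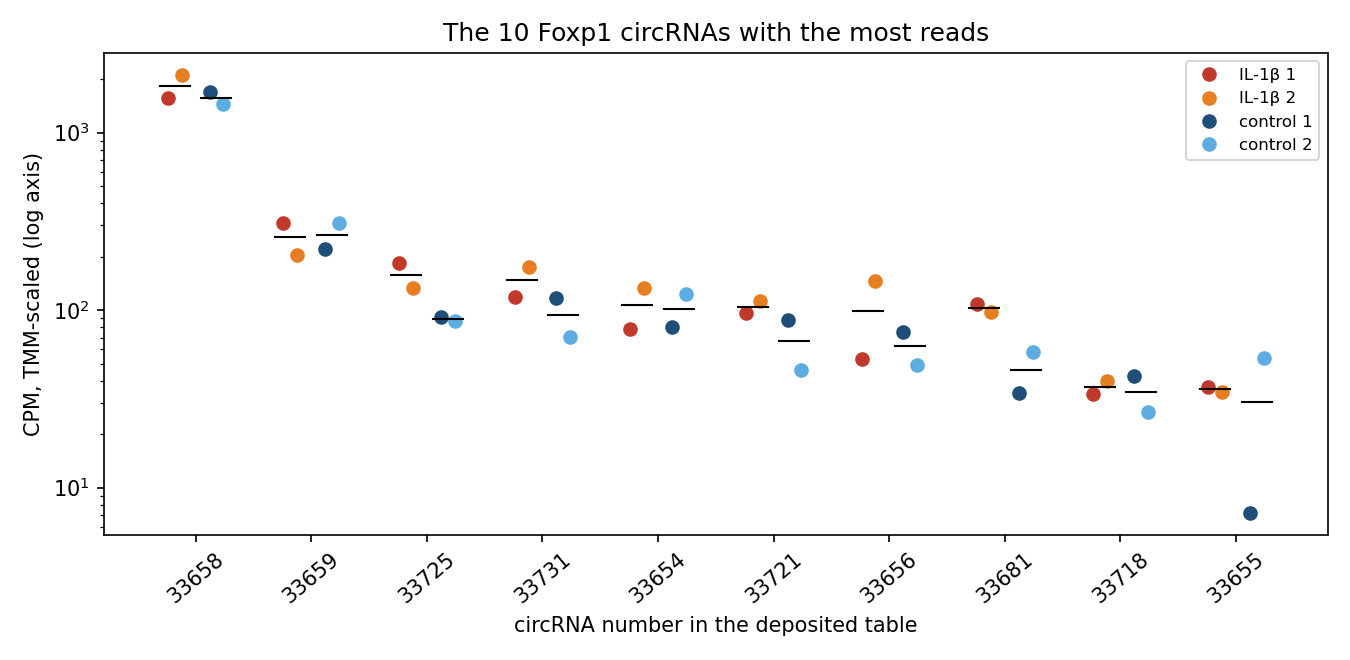
Points give the level (CPM, log axis) of the 10 Foxp1 circRNAs with the most reads in the IL-1β libraries (left of each pair) and the control libraries (right), with lines at the group means. In circRNA.33725, circRNA.33731, circRNA.33721 and circRNA.33681 both IL-1β points lie above both control points, and with SRPBM depth the groups of circRNA.33731 and circRNA.33721 overlap.

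Circles with few reads gave the largest fitted changes and the least certain ones. circRNA.33699 (99260345 to 99435345) had 13 and 17 reads with IL-1β, against 0 in both controls, at least 6.31-fold higher against a floor of 3 reads per library (adjusted p = 0.886 in edgeR). A floor covers counting error only. circRNA.33684 (99162839 to 99435345) had 0 and 3 reads with IL-1β, against 14 and 47 in control, and circRNA.33728 (99429210 to 99460450) had 3 and 0 reads with IL-1β, against 30 and 4 in control. These share ends with circles that stood higher with IL-1β, circRNA.33681 and circRNA.33725 among them. circRNA.33650 (98954321 to 99016665) and circRNA.33679 (99162839 to 99260419) each had no read with IL-1β, 23 in control 1 and 0 in control 2, so 1 library carried either value. The 19 tested circles not described one by one had 20 to 117 reads, adjusted p of 0.886 to 1.000, and a 0 in at least 1 library for 14 of them.

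**Figure D4:**
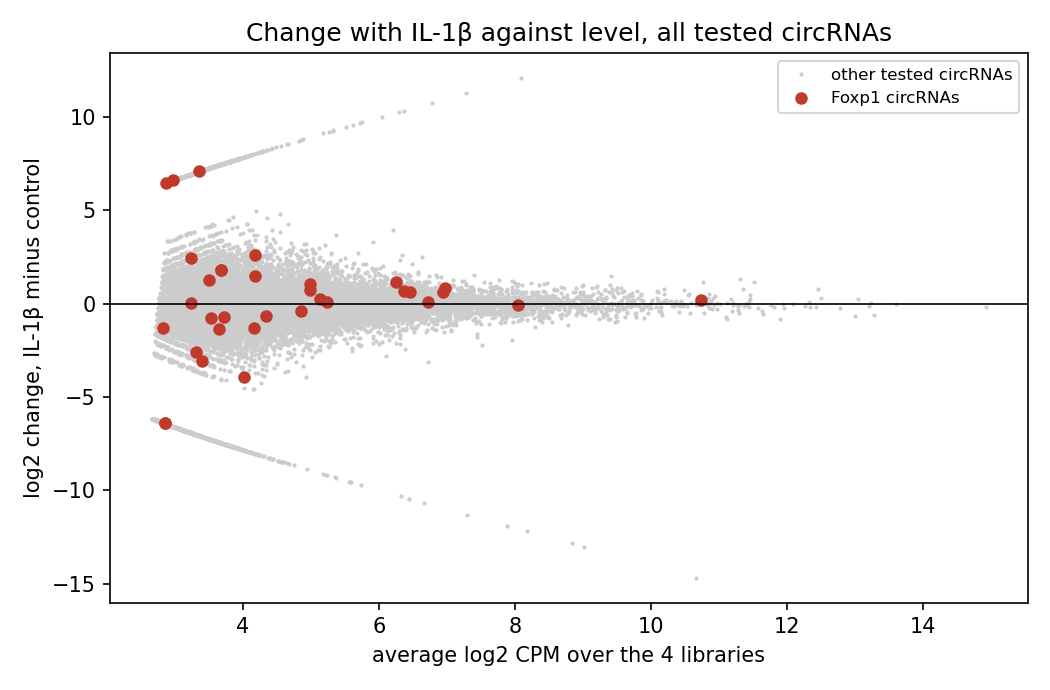
Each point is 1 of the 15333 tested circRNAs, with its average log2 CPM over the 4 libraries on the horizontal axis and its log2 change, IL-1β minus control, on the vertical axis. The 34 Foxp1 circles (red) lie within the cloud of the others, and those on the outer bands have 0 reads in 1 group.

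Without overlap between groups, 12 of the 34 tested circles stood higher with IL-1β and 3 lower. Over all tested circRNAs the shares were 16.4% higher and 17.2% lower, against 35.3% and 8.82% for Foxp1. With SRPBM depth the counts were 9 and 3, where all tested circRNAs gave 11.3% and 21.5%. A circle could reach the minimum of 20 reads through the group where it is high, so these counts are a description. circRNA.33699 did so, with 13 and 17 reads with IL-1β, against 0 in both controls. Also under the minimum in control, and past it through the IL-1β libraries alone, were circRNA.33688, circRNA.33714, circRNA.33665, circRNA.33716 and circRNA.33670. The remaining circles of the 12 reached it in each group. In the other direction circRNA.33684 had 0 and 3 reads with IL-1β, against 14 and 47 in control, and circRNA.33657 also passed through control alone. Of the 12, 6 lay between starts 1 and 2, where 13 were tested, and 4 crossed start 2 alone, where 8 were tested. After start 3, where 8 were tested, 0 stood higher without overlap. Each of these stretches held 1 of the 3 lower circles. These circles share ends and libraries and are not independent, and the difference between the stretches was not tested.

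Summed over a stretch, the reads between starts 1 and 2 separated the groups. Between starts 1 and 2 the circles together stood at 630 and 674 CPM with IL-1β, against 471 and 429 CPM in control, 1.45-fold higher in the means. That ratio was 1.23 with SRPBM depth. After start 3 they stood at 2053 and 2660 CPM with IL-1β, against 2121 and 2030 CPM in control, a ratio of 1.14 that was 0.962 with SRPBM depth. Circles across start 2 alone stood at 277 and 208 CPM with IL-1β, against 103 and 211 CPM in control. The small stretch between starts 2 and 3 stood at 38.2 and 45.3 CPM with IL-1β, against 31.5 and 3.45 CPM in control, also without overlap. With SRPBM depth its groups overlapped. Between starts 1 and 2 both IL-1β libraries stayed above both controls, but the groups all but touched. There SRPBM was 45.6 and 46.6 with IL-1β, against 44.3 in control 1 and 30.9 in control 2. The stretches were drawn after the values were seen and carry no test.

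Host output, which adds up the reads of every circle from a gene, put the gene as a whole slightly higher with IL-1β without passing the test. In CPM over tested hosts Foxp1 stood at 2959 and 3484 with IL-1β and at 2647 and 2750 in control. Both IL-1β values lay above both controls, with means of 3221 ± 372 CPM with IL-1β, against 2698 ± 72.7 CPM in control (SD, n = 2 each). The log2 change was 0.26 ± 0.17 (SE; unadjusted p = 0.168, adjusted p = 0.881 in edgeR), where the median of all hosts was -0.03. By edgeR 0.0% of 4878 hosts had an adjusted p under 0.05 and 4.55% an unadjusted one, while 17.0% stood higher with IL-1β without overlap. DESeq2 gave Foxp1 an adjusted p of 0.495 and called 1.13% of hosts. With SRPBM depth the groups overlapped and the log2 change was 0.05, where the median of hosts was -0.24. Without IL-1β 2 the log2 change was 0.13, where the median of hosts was -0.10. With the leading circle left out of the sum, an alternative added after the values were seen, it was 0.33 ± 0.19 (adjusted p = 0.881 in edgeR).

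Hosts with the most similar profile were found by the Euclidean distance between log2 CPM values centred over the 4 libraries, among 2207 other hosts with at least 200 reads. The nearest were Dera, which encodes deoxyribose-phosphate aldolase, at a distance of 0.0538, Zfp609, a zinc finger gene known for an abundant circRNA, at 0.0641, Eif2ak4, which encodes the amino acid sensing kinase GCN2, at 0.0691, and Ift80, an intraflagellar transport gene, at 0.0865. The median distance was 0.695. Dera stood at 573 and 646 CPM with IL-1β, against 500 and 533 CPM in control.

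Forkhead genes as a family served as the nearest comparison. RefSeq lists 44 forkhead genes, of which 11 gave circRNA reads, and these 11 were tested. Junction reads are counted at 1 junction per circle, so host output is not scaled to gene length. Foxn2, a forkhead gene with only 6 circles, came close to Foxp1 in output, at 2676 ± 653 CPM with IL-1β, against 2442 ± 665 CPM in control (SD, n = 2 each), and 1 circle held 88.5% of its reads. Foxo3, a target of insulin and growth factor signalling, had 1 circle and stood at 801 ± 58.4 CPM with IL-1β, against 833 ± 246 CPM in control. Foxn3 stood at 109 ± 44.2 CPM with IL-1β, against 140 ± 24.6 CPM in control. Foxo1, known to act in cartilage maintenance in mice, had 23 and 14 reads with IL-1β, against 0 and 5 in control. Of the close relatives, Foxp4 had 2 circles with 0 and 31 reads with IL-1β, against 23 and 13 in control, and Foxp2 and Foxp3 had no circRNA read.

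By edgeR 0 of the 11 forkhead hosts had an adjusted p under 0.05 and 0 an unadjusted one, where 4.55% of all hosts had the latter. DESeq2 called 0. Values were positive for 6 and negative for 5, with a median log2 change of 0.05 that became -0.21 with SRPBM depth and -0.0083 with a minimum of 50 reads. Foxp1 had the lowest unadjusted p of the family, and 4 of the 11, Foxp1 among them, stood higher with IL-1β without overlap and 0 lower, where 17.0% of all hosts stood higher and 18.9% lower. With SRPBM depth 1 stood higher and 2 lower, and Foxp1 overlapped. The median was 0.36 without IL-1β 1, 0.12 without IL-1β 2 and 0.26 without control 2, where all hosts gave -0.05, -0.10 and 0.01.

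**Figure D5:**
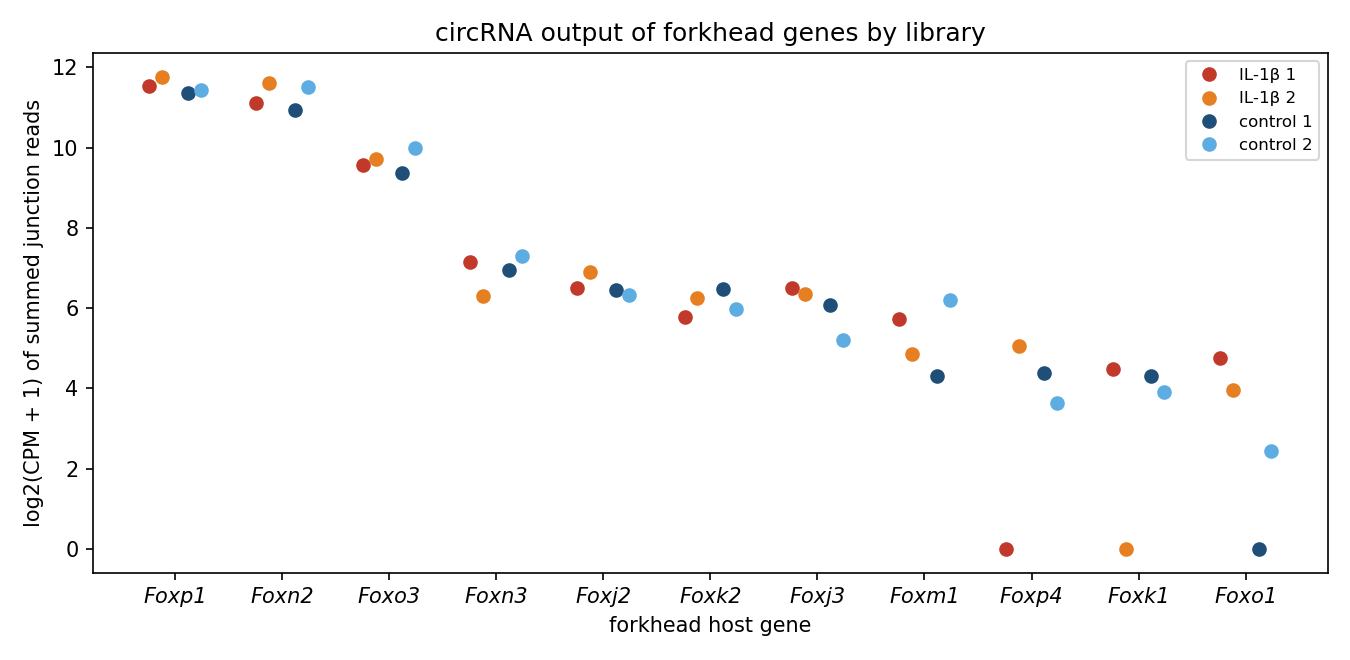
Points give log2(CPM + 1) of the summed junction reads of the 11 forkhead host genes in the IL-1β libraries (left of each group) and the control libraries (right). Foxp1 and Foxn2 stand highest in every library, and Foxp4, Foxk1 and Foxo1 each have 1 library at 0.

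Genes whose proteins are known or reported to bind or act with a Foxp factor, not in each case with Foxp1 itself, were read as a list of 32, of which 27 had circRNA reads and 24 were tested. By edgeR 0 of them were called, with 0 at an unadjusted p under 0.05, where 4.55% of all hosts were. DESeq2 called 0 with 1 at an unadjusted p under 0.05, where 10.7% of all hosts were. Of the 24, 16 were positive and 8 negative, with a median log2 change of 0.11 that became -0.07 with SRPBM depth, where 47.9% of all hosts were positive and their median was -0.03. Without overlap 4 of the 24 stood higher with IL-1β and 4 lower, where 17.0% of all hosts stood higher and 18.9% lower. The median was 0.057 without IL-1β 2 and 0.30 without control 1, where all hosts gave -0.10 and 0.03. Runx2, the osteoblast and hypertrophic chondrocyte regulator, stood at 376 ± 2.32 CPM with IL-1β, against 363 ± 124 CPM in control (SD, n = 2 each). Its relative Runx1 stood at 391 ± 68.6 CPM with IL-1β, against 312 ± 116 CPM in control. The co-repressor gene Ncor1 stood at 708 ± 145 CPM with IL-1β, against 721 ± 76.6 CPM in control.

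The lowest p in the list belonged to NuRD genes. Chd3, a remodelling subunit, had no read with IL-1β, against 17 and 15 in control (adjusted p = 0.881 in edgeR). Mbd2, which binds methylated DNA, stood at 167 ± 25.2 CPM with IL-1β, against 107 ± 7.42 CPM in control, a log2 change of 0.65 ± 0.35 (adjusted p = 0.881 in edgeR). These NuRD members lay in opposite directions.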

How the data were processed

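Junction reads of circRNAs were measured in 2 IL-1β and 2 control libraries. The authors deposited whole-number counts per circRNA and library, per the file headers, and SRPBM, a depth-scaled signal that they also deposited, which is the count divided by 1 constant per library. The submitters' processing notes name mm10 and Bowtie2, with no circRNA caller or filter given in the sources used here. The labels' IL-1β treatment text is the same for all samples, controls included, and the source label alone sets controls apart. The single-library tables matched the series table.

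Each circRNA was given the coding gene that held both ends (tolerance 1 bp), failing that the only other gene. Counts of all circRNAs, and of all hosts, with at least 20 reads were tested in R 4.3.3 by edgeR 4.0.16 (TMM, quasi-likelihood, no covariate, Benjamini-Hochberg at 0.05), after a test on simulated data. CPM uses the total of tested features. Standard errors are the log2 change over the square root of F. DESeq2 1.42.0, other scalings and filters, a replicate block and leaving out each library were alternatives.

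The members, lists and tests were chosen with earlier results of these data known. Circles described in full are the 10 with the most reads and the 4 with the lowest unadjusted p in each direction. List members described are the 4 with the most reads and the 2 with the lowest p, of which 1 is not reported here. Others named were chosen after their values were seen.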

Additional observations from a re-analysis of the deposited data

How the results depend on the processing

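No Foxp1 circle, no forkhead host and no partner host passed an adjusted p under 0.05 in any alternative run, with the replicate block included (0 calls), and the Foxp1 host output was positive in all of them. The labels do not say whether replicate numbers pair the libraries. Deviations of same-numbered libraries correlated at -0.03 over 3100 circRNAs and 0.03 over 2208 hosts. Such deviations also hold counting error, so these values do not decide whether the libraries were paired. With the replicate block the Foxp1 host log2 change was 0.25, and 1 Foxp1 circle had an unadjusted p under 0.05. Without IL-1β 1 that count was 0. With 1 library left out the host log2 change ran from 0.13 to 0.37, the mean share of the leading circle from 54.6% to 57.8%, and the mean number of Foxp1 circles per library from 41.0 to 43.0.

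Counting only circles with at least 5 reads in a library lowered that mean number to 35.8, against 41.8. Of 15 circles described in full, 11 had a value in each of 13 alternatives, and 5 of these kept their sign in each. The other 4 kept it where they could be run: circRNA.33650, circRNA.33679, circRNA.33699 and circRNA.33728 fell under a minimum of 50 reads, and circRNA.33650 and circRNA.33679 have no reads without control 1. With SRPBM depth the log2 change was -0.021 for circRNA.33658, -0.13 for circRNA.33654 and -0.18 for circRNA.33718. With 1 library left out the log2 change ran from -0.027 to 0.41 for circRNA.33658, -0.41 to 0.22 for circRNA.33659, -0.39 to 0.41 for circRNA.33654, -0.25 to 1.20 for circRNA.33656, -0.20 to 0.46 for circRNA.33718 and -0.58 to 2.29 for circRNA.33655. The cause was not tested. A circle without a read may still be present at up to 3.35 and 3.06 CPM of all junction reads with IL-1β, against 2.50 and 2.49 CPM in control, taking 3 reads as the floor.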

Other observations

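Among downstream ends, the site at 99158499 on chromosome 6, used by 4 Foxp1 circles, gathered 17 and 27 reads with IL-1β, against 0 in each control. Each of these 4 circles was read in 1 library only, so no circle of this site was read in both IL-1β libraries. The site at 99397501, used by 2 circles, had 10 and 11 reads with IL-1β, against 0 in each control. In the other direction, the site at 98954321, used by 4 circles, had 0 and 13 reads with IL-1β, against 48 and 27 in control. These sites were chosen after their values were seen, and none was tested.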
